A study of Mus musculus with 4 samples.

Results

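The Rab GTPases are a family of small GTP-binding proteins that direct traffic between the membranes of a cell. Here they were taken as the genes on the array whose symbol is Rab followed by a number and at most a letter and a digit, which leaves out Rab-like genes and the regulators of Rabs. Of 18193 named genes on the array, 59 were Rab genes, read by 132 probe sets. A probe set is a group of short probes that reads 1 transcript, and the brightest on average over the 4 arrays stood for the gene. The symbol rule uses no measured difference, but the family was chosen with earlier results of these data known.

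The cells were mouse embryonic fibroblasts (MEFs) on the way to pluripotency, fixed, made permeable, stained for the reprogramming factors Oct4 and Klf4 and for the epithelial surface protein EpCAM, and then sorted. There were 4 groups: Oct4-negative; Oct4 positive and Klf4 negative, written Oct4+Klf4-negative; Oct4 and Klf4 positive but EpCAM negative, written Oct4+Klf4+EpCAM-negative; and positive for all 3 stains, written Oct4+Klf4+EpCAM+. The labels give no genotype, mouse strain, embryo age, factor delivery or day of sorting, and they do not say if the Oct4-negative fraction and the rest grew in 1 dish. Each group was read on 1 array, so there is no replicate spread, no p-value is given, and precision is limited by how few arrays there are.

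A Rab cycles between a GDP-bound form held in the cytosol and a GTP-bound form on a membrane, where it recruits effectors such as tethers and motors. Exchange factors load it with GTP, GTPase-activating proteins (GAPs) end the active state, and a prenyl group attached to its C-terminal cysteines anchors it. Some Rabs act in nearly every cell at the Golgi apparatus and endosomes, while others serve cells with a polarised surface, secretory granules or a cilium. Epithelial cells rely on Rabs of the recycling endosome to carry proteins to the apical membrane.

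Levels are given on a log2 scale after robust multi-array average (RMA) processing, always in the order of the groups above. A difference is a difference of 2 such levels, and 1 unit of it is 2-fold. A gene was called higher or lower where the difference reached 2-fold and the higher level was at or above the floor of 4.53, the median of all values. The Oct4 step compares Oct4+Klf4-negative with Oct4-negative, the Klf4 step Oct4+Klf4+EpCAM-negative with Oct4+Klf4-negative, and the EpCAM step Oct4+Klf4+EpCAM+ with Oct4+Klf4+EpCAM-negative. The end-to-end comparison sets Oct4+Klf4+EpCAM+ against Oct4-negative and shares an array with the Oct4 step and another with the EpCAM step. Levels of different genes come from different probes and are not compared. In sorted bulk samples, fewer cells of a type and less RNA per cell cannot be told apart.

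The transcripts of the stained proteins followed the labels for Pou5f1, which encodes Oct4, at 7.59, 11.48, 11.66 and 11.70, and for Epcam, at 4.63, 5.20, 6.54 and 9.52. Klf4 had 2 probe sets with opposite courses, of which the brighter was at 7.32, 6.24, 10.20 and 10.60. Of 8 measured fibroblast markers, 8 were lower end to end, and Pdgfra stayed below the floor on every array. Of 15 measured epithelial markers, 13 were higher at the EpCAM step, beside 3.11% of all genes reaching the floor. The 13 include Epcam, whose protein the cells were sorted on. End to end, 11.9% of all genes reaching the floor were higher and 10.8% lower. Of 11 pluripotency markers 4 reached the floor, Fgf4, Sall4, Lin28a and Utf1, all higher end to end, by 3.14-fold to 54.9-fold, while Nanog and Sox2 did not reach it. The log2 of the summed linear levels of the 11 was 6.71, 6.72, 9.23 and 10.03. Of 8 endothelial markers 2 reached it, Tek and Cldn5, 42.4-fold and 17.8-fold higher end to end, and the 8 summed to 5.75, 7.82, 9.55 and 9.31. The part of both sets in the Rab genes that were higher in Klf4-positive arrays was not tested. The control probe sets at the 3′ and 5′ ends of Gapdh, a sign of RNA integrity, differed by 1.04, 1.30, 1.04 and 0.97, so the Oct4+Klf4-negative array had the widest gap, those of Actb differed by -0.05 to -0.07 on every array.

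A minority of Rab genes differed by 2-fold or more between fractions, led by Rab25 upward and Rab34 downward. Of the 59 Rab genes, 49 reached the floor on at least 1 array and 37 did so on all 4. Of the 49, 16 were called in at least 1 of the 4 comparisons (32.7%), against 28.2% of the 11428 genes of the array that reached the floor. The other 33 were called in none, and the widest of them was Rab43 with a range of 0.96 over the arrays. Of the 16 called genes, 9 lay under the floor on at least 1 array, so they passed the floor through the fractions where they were high.

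**Figure D1:**
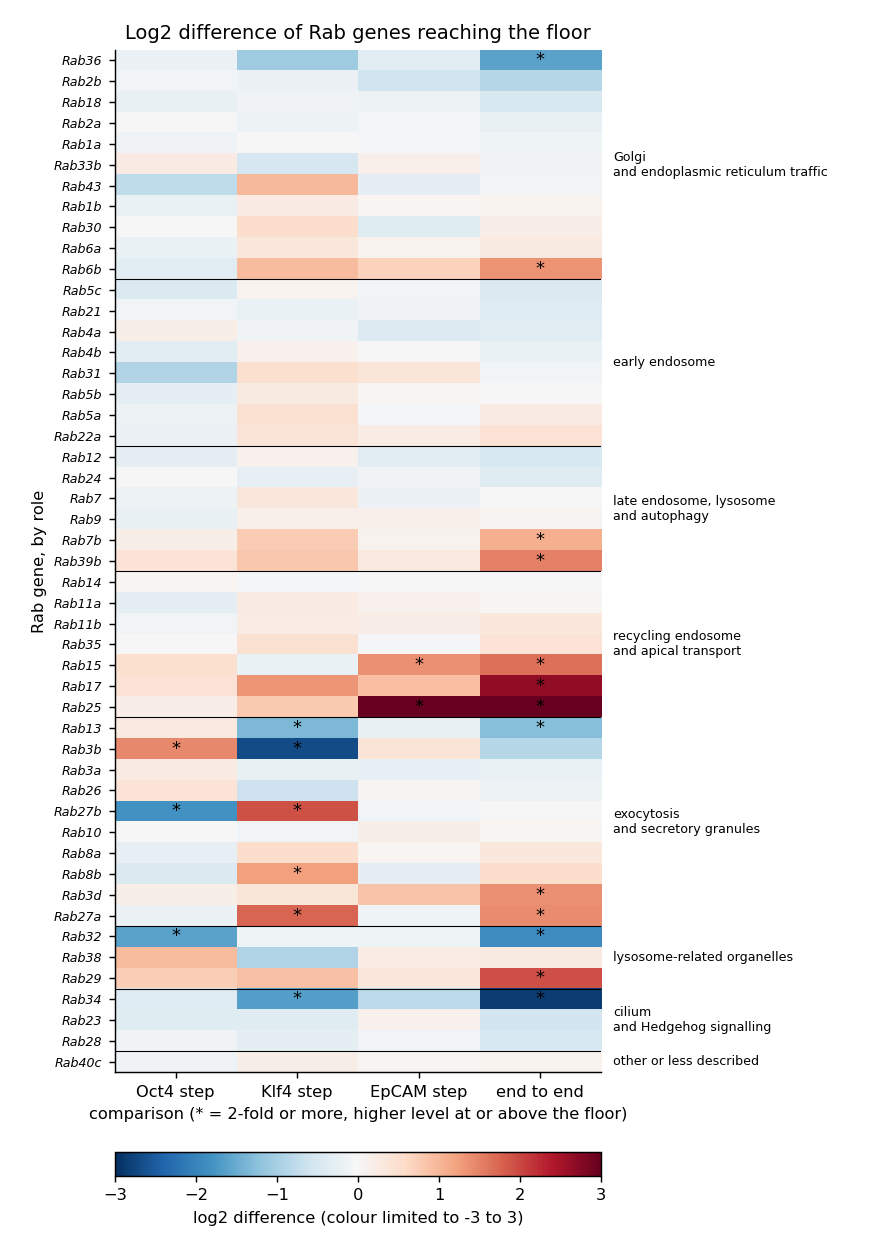
Log2 differences of the 49 Rab genes that reached the floor (rows, grouped by role) in the 4 comparisons (columns), with 1 array per fraction; red is higher in the later fraction, blue lower, and an asterisk marks a difference of 2-fold or more with the higher level at or above the floor. The 16 genes with an asterisk are 6 of 10 secretory, 3 of 7 recycling, 2 of 3 lysosome-related, 2 of 11 Golgi, 2 of 6 late endosome and 1 of 3 ciliary genes. There is none among the 8 early endosome genes or for Rab40c. Of all genes reaching the floor, 28.2% were called in at least 1 comparison.

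At the Oct4 step 1 Rab gene was higher and 2 were lower, which is 2.04% and 4.08% of the 49, where 3.59% and 4.84% of all genes reaching the floor were called (8.43% in either direction). At the Klf4 step 3 were higher and 3 lower (6.12% each), beside 8.44% and 6.88% of all genes (15.3% in either direction). At the EpCAM step 2 were higher and 0 lower, 4.08% and 0.0%, beside 3.11% and 1.79% (4.89% in either direction). End to end, 9 were higher and 4 lower (18.4% and 8.16%), beside 11.9% and 10.8% (22.6% in either direction). These shares lie near those of all genes, and with so few genes no share is a result about the family. The median difference of the 49 genes was -0.11, 0.15, -0.01 and 0.02 in the 4 comparisons, where that of all genes was 0.02, 0.04, -0.00 and 0.07.

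The range of a gene, its highest minus its lowest level over the 4 arrays, had a median of 0.54 for Rab genes and of 0.62 for all genes reaching the floor. It was under 0.5 for 23 of 49 Rab genes (46.9%) and for 39.9% of all genes. The narrowest by the probe set used was Rab14, a GTPase of endosomes and the trans-Golgi network, at 9.74, 9.80, 9.74 and 9.72, a range of 0.07. Rab14 has 7 probe sets, and others varied more, such as one at 8.43, 7.89, 8.32 and 8.23. The widest was Rab25, with a range of 5.13. With a step of any size counted, 6 Rab genes stepped up at each gate (Rab17, Rab25, Rab29, Rab39b, Rab3d and Rab7b), or 12.2% beside 14.3% of all genes. By the same count 9 stepped down at each gate, or 18.4% beside 10.9%. Some of these steps were tiny, such as -0.003 for Rab2a and -0.007 for Rab24 at the Oct4 step. The median SD between probe sets of a gene at that step was 0.16 over 26 Rab genes. The first step of Rab17, from 2.34 to 2.77, lay under the floor. Neither other probe set of Rab7b rose at the EpCAM step, with -0.33 and -0.01. The counts are therefore no measure of ordered change.

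**Figure D2:**
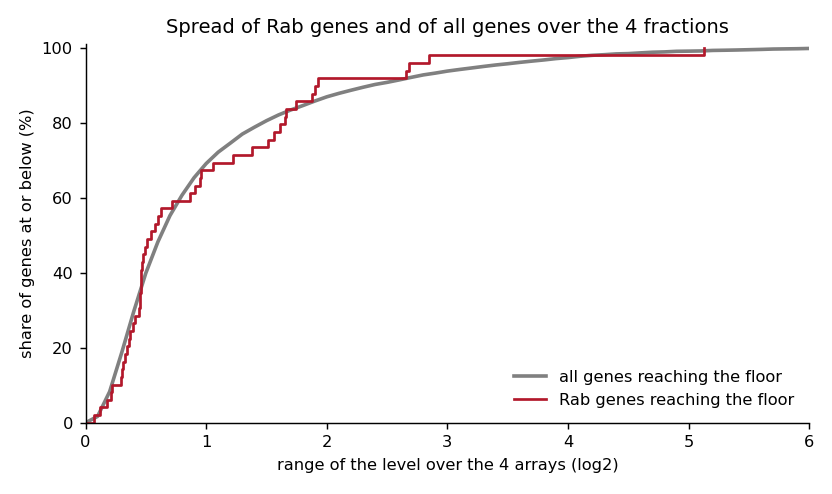
Cumulative share of genes (vertical axis, %) by the range of their level over the 4 arrays (horizontal axis, log2 units), for the 49 Rab genes and the 11428 genes that reached the floor. The 2 curves run close together, with medians of 0.54 and 0.62, and the last step of the Rab curve is Rab25 at 5.13.

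The Rabs of recycling and apical transport held the largest difference of the family. Rab25, a relative of Rab11 found mainly in epithelial cells, was at 3.83, 4.02, 4.81 and 8.95. The EpCAM-positive array stood apart from the other 3, with a level 17.7-fold above that of the EpCAM-negative array and 35.0-fold above that of the Oct4-negative one. Its paralogues Rab11a and Rab11b, which serve the recycling endosome of most cells, were at 9.10, 8.80, 9.04 and 9.17 and at 8.84, 8.75, 8.97 and 9.16. Neither was called in any comparison, and their differences at the EpCAM step were 0.13 and 0.20, where that of Rab25 was 4.15. Rab25 was read by 1 probe set, so no other probe set could be set beside it.

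Rab17, a Rab of polarised epithelia that acts in transcytosis, was at 2.34, 2.77, 4.09 and 5.0. It rose from below the background ceiling of 2.94, set by 27 bacterial control probe sets that were dim on every array, to a level at least 4.16-fold above it at the far end. It reached the floor on that array alone, and at the Klf4 step its difference of 1.32 was not called because both levels were under the floor. Its other probe set stayed between 2.59 and 2.80 and below the ceiling, so the difference of Rab17 rests on 1 probe set. Rab15, which acts in the recycling of endosomes to the surface and is best known from neurons, was read by 1 probe set. It was at 4.75, 5.24, 5.04 and 6.41, 2.58-fold higher at the EpCAM step and 3.14-fold end to end. The EpCAM-positive array again had the highest level, and the other 3 lay within 0.48 of each other. Rab35, which steers recycling to the plasma membrane, was at 7.77, 7.77, 8.23 and 8.17, with no difference past 0.46.

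Summed epithelial markers were highest in the EpCAM-positive array, as Rab25, Rab17 and Rab15 were. The log2 of the summed linear levels of the 16 epithelial markers on the array was 10.32, 9.77, 11.42 and 13.11. This sum was lower at the Oct4 step, where Rab25, Rab17 and Rab15 differed by 0.19, 0.43 and 0.48. Of the 16 markers 15 reached the floor, with Cldn6 below it throughout. Keratinocyte markers, of which 7 of 11 reached the floor and Krt15, Trp63, Col17a1 and Lor did not, summed to 8.03, 8.38, 11.90 and 12.56 in the same way, with their main step at the Klf4 gate. The part of either set in the differences of Rab25, Rab17 and Rab15 was not tested. Of the effectors that link Rab11 proteins to motors, Rab11fip1, which binds Rab25 as well, was at 5.16, 5.39, 5.76 and 6.04, and its end-to-end difference of 0.88 was under 2-fold. Rab11fip2 was 2.19-fold lower end to end, at 6.60, 6.61, 5.78 and 5.47. Rab11fip5 was at 8.18, 6.87, 7.82 and 8.37, 2.49-fold lower at the Oct4 step, and Myo5b, the motor of apical recycling endosomes, stayed between 3.55 and 3.71, below the floor.

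The promoter of Rab25 is shown beside that of Rab11a because the 2 paralogues had such different courses, and those of Rab17, Rab15 and Rab27a are shown because they hold the same short motif and were also higher end to end. Each sequence is the 250 bases before the transcription start in RefSeq (build GRCm38.p6), read 5′ to 3′ on the gene's strand, with motif matches in capitals. The motifs searched on both strands were the E-box bound by Snail and Zeb repressors (CACCTG, or CAGGTG on the other strand), a Klf element (GGGTGTGG or CCACACCC), an AP-1 element (TGAGTCA or TGACTCA), a Grainyhead-like element (AACCGGTT) and a TEAD element (CATTCC or GGAATG). None of these motifs lies within another. Rab25 lies on the minus strand at chr3:88548280-88548529, Rab11a on the minus strand at chr9:64737757-64738006, Rab17 on the minus strand at chr1:90967668-90967917, 1 of 4 listed starts of Rab15 on the minus strand at chr12:76818375-76818624, and 1 of 2 listed starts of Rab27a on the plus strand at chr9:73044560-73044809.
Rab25: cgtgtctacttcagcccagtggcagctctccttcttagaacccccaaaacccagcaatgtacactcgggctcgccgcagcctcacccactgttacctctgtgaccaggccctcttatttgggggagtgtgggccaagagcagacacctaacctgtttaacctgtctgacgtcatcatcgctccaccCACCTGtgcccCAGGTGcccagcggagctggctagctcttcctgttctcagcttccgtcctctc
Rab11a: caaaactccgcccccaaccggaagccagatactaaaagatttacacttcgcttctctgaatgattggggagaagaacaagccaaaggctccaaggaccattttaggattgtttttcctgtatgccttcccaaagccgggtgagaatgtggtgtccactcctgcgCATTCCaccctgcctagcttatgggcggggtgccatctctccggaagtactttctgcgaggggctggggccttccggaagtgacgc
Rab17: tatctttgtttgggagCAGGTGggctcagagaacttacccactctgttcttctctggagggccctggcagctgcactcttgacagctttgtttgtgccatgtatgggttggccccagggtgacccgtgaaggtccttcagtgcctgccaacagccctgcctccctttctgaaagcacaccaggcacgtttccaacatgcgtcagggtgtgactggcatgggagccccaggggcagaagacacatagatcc
Rab15: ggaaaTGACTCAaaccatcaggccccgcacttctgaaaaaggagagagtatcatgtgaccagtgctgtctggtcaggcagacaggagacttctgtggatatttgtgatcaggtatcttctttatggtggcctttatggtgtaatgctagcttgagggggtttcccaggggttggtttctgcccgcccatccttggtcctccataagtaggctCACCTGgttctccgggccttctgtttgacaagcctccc
Rab27a: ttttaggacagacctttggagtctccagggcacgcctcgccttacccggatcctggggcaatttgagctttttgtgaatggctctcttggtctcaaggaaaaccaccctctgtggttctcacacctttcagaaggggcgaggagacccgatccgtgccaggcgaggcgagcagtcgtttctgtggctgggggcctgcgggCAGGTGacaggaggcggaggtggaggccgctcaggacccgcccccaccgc

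In the Rab25 promoter the E-box occurred in both orientations, beginning 64 and 53 bases before the start. Rab17 held it 234 bases before the start, Rab15 held it 38 bases and Rab27a 50 bases before. Rab15 also had an AP-1 element 245 bases before the start. The Rab11a promoter held no E-box and a single TEAD element 86 bases before the start. Over the 32841 promoters of the table, 17.2% held the E-box, and 9 of the 60 promoters of Rab genes did (15.0%). By gene, the E-box was found in 4 of the 8 Rab genes with a promoter sequence that were higher end to end, in 0 of 3 that were lower, in 4 of 29 that were not called (Rab23, Rab3a, Rab5c and Rab9) and in 1 of 8 below the floor. Over all genes reaching the floor it was found in 18.4%, and in 28.5% of those higher end to end. The genes shown were chosen after their levels were known, and a match of 6 letters describes the sequence without showing a bound site.

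Of the Rabs of exocytosis and secretory granules, 6 of 10 measured members were called in some comparison, beside 28.2% of all genes, and their largest differences were at the Klf4 step. Rab3b, which controls regulated secretion in neurons, endocrine cells and some epithelia, was read by 1 probe set, at 5.09, 6.54, 3.85 and 4.23. The Oct4+Klf4-negative array had the highest level, 2.73-fold above the Oct4-negative array and 6.43-fold above the Oct4+Klf4+EpCAM-negative one. Its relatives took other courses. Rab3a, the main Rab of synaptic vesicles, was at 5.62, 5.86, 5.65 and 5.41 and was not called, while Rab3d, a Rab of exocrine granules, climbed through 4.92, 5.09, 5.45 and 6.30 and was 2.60-fold higher end to end. Both other probe sets of Rab3d that reached the floor were higher end to end as well, by 1.62 and 2.38, and Rab3c stayed below the floor, at 3.77 to 3.96. Of 7 neuroendocrine and exocrine markers 1 reached the floor, while Chga, Chgb, Scg2, Scg3, Pcsk1 and Cela1 did not. The log2 of the summed linear levels of the 7 was 10.07, 10.16, 9.66 and 8.82, lowest in the array where Rab3d was highest. That sum mostly reads the 1 marker above the floor, which differed by -1.34 end to end. The part of these markers in the difference of Rab3d was not tested.

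Neuronal markers moved at the same gate as Rab3b. Of 9 measured ones, 6 were higher at the Oct4 step, beside 3.59% of all genes. At the Klf4 step 4 were lower and 2 higher, beside 6.88% and 8.44%. The log2 of the summed linear levels of the 12 on the array was 9.37, 11.65, 11.74 and 11.72, so the sum stayed up at the Klf4 step where Rab3b was lower. The peak of Rab3b and the dip of Rab27b described next rest on the Oct4+Klf4-negative array, which also had the widest gap between the ends of Gapdh, and the part of RNA quality in them was not tested. The 4 that were lower, as Rab3b was, were the cytoskeletal and growth-cone genes Map2, Nefl, Nefm and Gap43, and the 2 that were higher were Stmn2 and Tubb3. Of the synaptic markers, Syp and Syn1 were below the floor on every array, as was the neuronal RNA-binding gene Elavl3. Syt1, the calcium sensor of synaptic vesicles, was at 3.75, 5.0, 4.89 and 4.10, 2.37-fold higher at the Oct4 step, and Snap25, a subunit of the fusion machinery, was 3.40-fold higher at the EpCAM step. The part of these markers in the difference of Rab3b was not tested. Rims1, a Rab3 effector of the active zone of synapses, was at 4.52, 5.52, 2.53 and 2.82 and at least 5.95-fold lower at the Klf4 step. Its relative Rims2 ran the other way, at 2.73, 3.10, 4.33 and 5.38, 2.08-fold higher at the EpCAM step and at least 5.43-fold higher end to end. Madd, an exchange factor of Rab3 and Rab27, was at 7.05, 6.70, 8.04 and 8.49, 2.53-fold higher at the Klf4 step.

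The Rab27 pair, which docks secretory granules and melanosomes at the plasma membrane, was higher at the Klf4 step. Rab27a was at 3.44, 3.26, 5.01 and 4.87, so the Klf4-positive arrays lay above the other 2, by 3.34-fold at that step and 2.68-fold end to end. Its 3 other probe sets, all below the floor, differed by 0.71, 1.27 and 1.04 at the Klf4 step. Rab27b was at 5.01, 3.19, 5.09 and 5.02, low in the Oct4+Klf4-negative array alone, 3.53-fold lower at the Oct4 step and 3.74-fold higher at the Klf4 step. Its other probe sets, which did not reach the floor, differed by -0.22 to -0.44 at the Oct4 step and by 0.07 to 0.46 at the Klf4 step, much less than the one used. With all probe sets of a gene averaged, neither Rab27 gene was called in any comparison. The averaged difference of Rab27a at the Klf4 step was still 1.19, above 2-fold, but its averaged levels lay under the floor.

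Of the Rab27 effectors on the list, Exph5 and Sytl1 were called. Exph5, also known as Slac2-b, was at 2.70, 4.94, 6.65 and 7.14, at least 18.4-fold higher end to end, with the largest part of that at the Oct4 and Klf4 steps (at least 3.99-fold and 3.28-fold). Sytl1, a synaptotagmin-like protein that binds Rab27, was at 6.05, 4.49, 6.83 and 7.48. It dipped in the Oct4+Klf4-negative array as Rab27b did, 2.94-fold lower at the Oct4 step and 5.06-fold higher at the Klf4 step. Unc13d, also known as Munc13-4, was at 3.97, 3.9, 4.23 and 4.94 and was not called, and Sytl2, Sytl4, Mlph and Myrip were below the floor on all arrays. Exph5 and Sytl1 were each read by 1 probe set.

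Rab27 genes also mark melanocytes and blood cells, so the markers of both were read. The melanocyte enzymes Tyr, Tyrp1 and Dct were no higher than 2.75 on any array, under the background ceiling, and Mitf, a regulator of melanocytes also found in other cells, was at 6.08, 4.08, 3.12 and 2.14. The melanosome protein Pmel reached the floor at 4.2, 4.30, 5.08 and 4.92, higher in the arrays where Rab27a was, with a difference of 0.78 at the Klf4 step that missed 2-fold. Sox10, a regulator of neural crest cells, stayed between 4.49 and 4.67. Of 10 leukocyte markers 7 stayed below the floor, including Ptprc, the pan-leukocyte surface protein CD45, which was highest in the EpCAM-positive array at 3.64. Laptm5, a lysosomal protein of blood cells, reached it at 3.81, 4.69, 9.50 and 8.38, 28.0-fold higher at the Klf4 step, where Rab27a was higher too, and 2.16-fold lower at the EpCAM step, where Rab27a was not called. Cd14, a receptor of macrophages also found in some other cells, dipped in the Oct4+Klf4-negative array as Rab27b did, at 4.63, 3.21, 4.85 and 4.69. The third, Cd68, a lysosomal protein of macrophages, was highest in the Oct4-negative array at 7.76, 5.95, 6.32 and 6.48, 2.43-fold lower end to end. The log2 of the summed levels of the 10 was 8.24, 7.15, 9.78 and 8.97, and the part of these and the melanocyte markers in the differences of Rab27a and Rab27b was not tested.

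Rab8a, Rab8b, Rab10 and Rab13 form a related branch that carries Golgi-derived and recycling cargo to the plasma membrane and the cilium. Rab8a and Rab10 were not called, at 7.89, 7.64, 8.17 and 8.21 and at 9.92, 9.90, 9.81 and 9.99. Rab13, a Rab of tight junction assembly, was read by 1 probe set, at 5.68, 5.98, 4.64 and 4.41. It was lower in both Klf4-positive arrays than in the other 2, by 2.53-fold at the Klf4 step and 2.41-fold end to end. Its effector Micall2 was at 7.10, 4.61, 4.23 and 5.66, 5.61-fold lower at the Oct4 step and 2.69-fold higher at the EpCAM step. Rab8b was at 8.33, 7.90, 9.12 and 8.85, 2.33-fold higher at the Klf4 step, but its other probe set, at 7.03, 7.22, 6.76 and 6.73, went the opposite way there with -0.47. The call for Rab8b therefore depends on which probe set is read, and it was not made when both were averaged. Rab26, a Rab of granule maturation, was at 5.80, 6.21, 5.58 and 5.66, with no difference past 0.63.

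The ciliary group held the largest decrease of the family. Rab34, which takes part in building the ciliary vesicle and is needed for Hedgehog signalling, was at 9.01, 8.63, 6.98 and 6.17. The level was lower in each successive fraction, by 3.15-fold at the Klf4 step and 7.20-fold end to end. Its other probe set ran in parallel at 7.02, 6.41, 5.12 and 4.49, with differences of -1.29 at the Klf4 step and -2.53 end to end. Rab36, its closest relative and a Rab of the Golgi and late endosomes, was at 4.71, 4.52, 3.45 and 3.10 and 3.05-fold lower end to end. At the Klf4 step it differed by -1.08, which was not called because the higher level lay just under the floor, and both dimmer probe sets of Rab36 were also lower end to end, by -1.09 and -0.31.

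The other ciliary Rabs had smaller differences. Rab23, a negative regulator of Hedgehog signalling, was at 8.52, 8.16, 7.80 and 7.93, and Rab28, a Rab of the periciliary membrane, at 8.31, 8.22, 7.92 and 7.84. Neither passed 2-fold, with end-to-end differences of -0.58 and -0.47. Ift27, a Rab-like subunit of intraflagellar transport, was at 8.87, 8.45, 7.25 and 6.81, 2.29-fold lower at the Klf4 step and 4.16-fold lower end to end, and its 2 other probe sets were lower end to end by -1.88 and -1.66. Ift22, another Rab-like subunit, differed by -0.76 end to end. The sum of the fibroblast markers was lower over the same fractions: the log2 of the summed linear levels of the 9 on the array was 13.66, 12.47, 11.28 and 10.74. Of the 8 measured, 4 were lower at the Oct4 step, where Thy1 was 2.69-fold higher. At the Klf4 step 7 were lower, and S100a4 was 2.72-fold higher. The part of these markers in the decrease of Rab34, Rab36 and Rab13 was not tested.

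The Rabs of lysosome-related organelles, such as melanosomes and platelet granules, split. Rab32 was at 5.30, 3.69, 3.55 and 3.42, so the Oct4-negative array stood above the other 3, by 3.05-fold at the Oct4 step and 3.67-fold end to end. Rab38, its closest relative and partner in melanosome formation, was at 3.83, 4.77, 3.87 and 4.10, highest in the Oct4+Klf4-negative array, with differences of 0.95 and -0.90 on either side that missed 2-fold. Rab29, which acts at the trans-Golgi network and stressed lysosomes and binds the kinase Lrrk2, climbed through 5.09, 5.82, 6.69 and 7.02. No single step of Rab29 reached 2-fold, and end to end it was 3.81-fold higher. Rab32 and Rab29 were each read by 1 probe set. The log2 of the summed linear levels of the 8 melanocyte markers on the array was 7.12, 6.51, 6.59 and 6.57, highest where Rab32 was. Of the 3 that reached the floor Mitf alone was lower end to end, and Pmel and Sox10 differed by 0.72 and 0.15. Their part in the difference of Rab32 was not tested.

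Of the late endosome and lysosome Rabs, 2 of 6 measured members were called, both end to end, where 28.2% of all genes were called in any comparison. Rab39b, a Rab with a role in autophagy and in neurons, was at 5.32, 5.73, 6.55 and 6.83, 2.85-fold higher end to end, and its other probe set, which did not reach the floor, differed by 0.62. Rab7b, which acts between late endosomes and the Golgi, was at 5.21, 5.39, 6.16 and 6.26, 2.08-fold higher end to end. Its 2 other probe sets differed by 0.51 and 0.61 end to end, and that call was lost when they were averaged. Rab7, the main Rab of late endosomes, was at 10.05, 9.91, 10.25 and 10.07. Rab9, which returns receptors from late endosomes to the Golgi, was at 8.22, 7.98, 8.13 and 8.29, Rab12 at 8.00, 7.73, 7.86 and 7.54 and Rab24, a Rab of autophagy, at 7.93, 7.92, 7.68 and 7.57, and none of these was called.

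Of the early endosome Rabs, 0 of 8 measured members were called in any of the 4 comparisons, where 28.2% of all genes were, a count too small to set the group apart. Their median range was 0.45, and that of the late endosome group was 0.41. By the probe sets used, the Rab5 genes, whose products drive fusion of early endosomes, kept ranges of at most 0.45, Rab5a at 7.25, 7.10, 7.55 and 7.50, Rab5b at 7.29, 7.01, 7.28 and 7.31 and Rab5c at 6.56, 6.12, 6.23 and 6.14. The other probe set of Rab5b was at 5.64, 6.38, 6.23 and 6.33. It differed by 0.73 at the Oct4 step, where the one used gave -0.28. Rab4a and Rab4b, of fast recycling, had ranges of 0.51 and 0.32. The widest of the group was Rab31, a relative of Rab22a between the trans-Golgi network and endosomes, at 8.87, 7.96, 8.43 and 8.79, lowest in the Oct4+Klf4-negative array with a difference of -0.90 at the Oct4 step. Its other probe set gave -0.65 there. Rab22a ranged over 0.60 and Rab21, a Rab of integrin uptake, over 0.39. The other probe set of Rab21 differed by -0.76 end to end.

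Among the Rabs of the Golgi and endoplasmic reticulum, 2 of 11 measured members were called in any comparison, beside 28.2% of all genes. Rab6b, a neuronal form of the Golgi Rab6, was at 4.31, 4.00, 4.96 and 5.66, 2.55-fold higher end to end, and its 2 other probe sets that reached the floor differed by 0.99 and 1.45. Rab6a, the form found in most cells, was at 8.39, 8.19, 8.54 and 8.65, a range of 0.46. The other call was that of Rab36, given above. Rab1a and Rab1b, needed for transport from the endoplasmic reticulum to the Golgi, had ranges of 0.12 and 0.30, Rab2a had 0.22 and Rab18, a Rab of lipid droplets and the endoplasmic reticulum, 0.47. Rab2b was at 6.82, 6.73, 6.54 and 5.95, lower in each fraction by the probe set used, and its end-to-end difference of -0.87 missed 2-fold. Rab33b, Rab30 and Rab43 were not called either, and Rab43 dipped in the Oct4+Klf4-negative array, at 5.10, 4.34, 5.30 and 5.02.

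In 10 Rab genes no array reached the floor: Rab19, Rab20, Rab33a, Rab37, Rab39, Rab3c, Rab40b, Rab42, Rab44 and Rab9b. Rab39 and Rab9b stayed under the background ceiling throughout. Rab33a, a Rab of axonal vesicles, went from 2.41 and 2.47 to 3.63 and 4.14, and Rab20, which acts in phagosomes, from 4.10 to 2.83, 2.81 and 2.71. Both differences exceed 2-fold on the log scale but neither could be called at these levels. Rab40b, a Rab with a ubiquitin ligase domain, showed a limit of choosing the probe set by its mean: the one used stayed between 3.66 and 4.01, while the other was at 4.53, 4.93, 3.13 and 2.23. Rab40c, its relative, had a range of 0.22 by the probe set used, which was at 7.54 to 7.64 apart from 7.42 in the Oct4+Klf4-negative array.

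The proteins that run the Rab cycle were read from lists of genes, beside the background of 22.6% of genes called end to end. Of 7 measured genes of prenylation and membrane extraction, 1 was higher end to end, Chml, an escort protein for prenylation, by 2.36-fold at 5.33, 5.41, 6.32 and 6.57. Rabac1, which helps release Rabs from their cytosolic chaperone, was 2.59-fold higher at the Klf4 step, at 7.07, 6.57, 7.94 and 7.96. The median difference of those 7 genes at the Klf4 step was 0.65, with Rabif, Chm and Rabggta at 0.65, 0.79 and 0.51, and Gdi2, that chaperone, at 0.20. Rabggtb, a subunit of the prenyl transferase, went the other way with -0.18. Over all genes reaching the floor the median at that step was 0.04.

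Of 31 measured exchange factors, 4 were higher and 4 lower end to end. The Rin genes, whose products activate Rab5, were lower: Rin1 at 8.36, 7.08, 6.98 and 6.91, 2.72-fold end to end with its step at the Oct4 gate, and Rin2 at 6.14, 5.37, 4.86 and 4.51, 3.09-fold. Rin3 was 2.25-fold lower at the Oct4 step and differed by -0.48 end to end. Als2cl, a relative of the Rab5 exchange factor alsin, was higher, at 4.18, 3.57, 5.68 and 6.11, 4.31-fold at the Klf4 step, and its other probe set differed by 2.73 there. Among the DENN domain genes, Dennd1b and Dennd3 were 3.23-fold and 3.06-fold higher end to end, and Dennd2a and Dennd5a 2.33-fold and 2.13-fold lower.

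**Figure D3:**
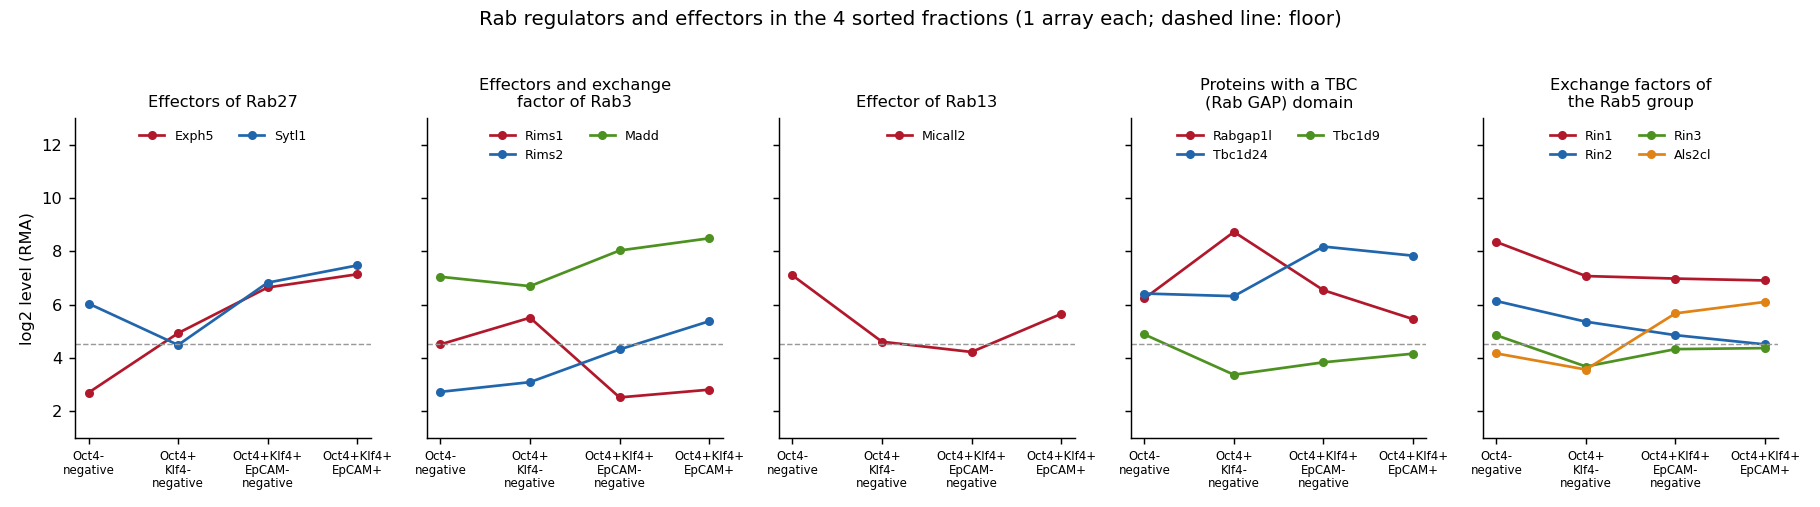
Log2 level (vertical axis) in each of the 4 fractions (horizontal axis, 1 array each) of regulators and effectors of Rab proteins that were called in at least 1 comparison; the dashed line is the floor of 4.53, and heights of different genes are not comparable. Exph5 climbs from 2.70 to 7.14, Sytl1 dips to 4.49 and Rabgap1l peaks at 8.73 in the Oct4+Klf4-negative array, and Rin1 and Rin2 are highest in the Oct4-negative array.

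Of 37 measured genes on the list of Rab GAPs and their relatives, 3 were higher and 3 lower end to end. GAP activity of their products was not measured. Rabgap1l was at 6.24, 8.73, 6.55 and 5.46, highest like Rab3b in the Oct4+Klf4-negative array, 5.64-fold above the Oct4-negative array and 4.56-fold above the next. Of its 3 other probe sets that reached the floor, the differences at the Oct4 step were 2.73, 0.25 and -0.31, so the peak is seen in part of its probe sets. Tbc1d24 was 3.63-fold higher at the Klf4 step, at 6.42, 6.32, 8.18 and 7.84, with both other measured probe sets at 1.32 and 1.48. Tbc1d9 was 2.85-fold lower at the Oct4 step. Of 37 measured effectors, 5 were higher and 2 lower end to end. Besides those named above, Exoc6, a subunit of the exocyst bound by Rab proteins, was 2.88-fold higher and Appl1, a Rab5 effector, 2.08-fold higher. Of 11 measured related GTPases 1 was lower, Ift27, and the trafficking GTPases Arf1 and Arf6 differed by -0.14 and -0.00 end to end.

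Promoters of 48 Rab genes were in the RefSeq table, and 40 of these genes reached the floor. The CpG ratio, the number of CG pairs divided by that expected from the C and G content, was under 0.6 in 8 of the 40 (20%), taking the highest value where a gene has several starts, and in 26.8% of all genes reaching the floor with a promoter. The 8 were Rab11a, Rab17, Rab25, Rab27a, Rab31, Rab32, Rab3b and Rab9. Their median range over the arrays was 1.81, and that of the 32 others 0.46, where the same medians over all genes were 0.87 and 0.56. Of the 8, Rab17, Rab25, Rab27a, Rab32 and Rab3b reached the floor on 1 or 2 arrays only. They entered through the fractions where they were high. Below the floor and left out, Rab19, Rab3c, Rab40b and Rab42 also had ratios under 0.6, with ranges of 0.33, 0.19, 0.35 and 0.27. So did Rab33a, with a range of 1.73. The choice by the floor therefore bears on these medians and on the correlations below. Rab25 had a ratio of 0.40 and Rab17 of 0.15, but Rab9 and Rab11a, at 0.47 and 0.56, were among the steady genes, with ranges of 0.31 and 0.37. Rab39b had the highest ratio, 1.30, with a range of 1.51. Across these 40 genes, which share the same 4 arrays and are not independent replicates, Pearson's r between ratio and range was -0.46 and Spearman's rho -0.29, and across 9273 genes they were -0.26 and -0.22.

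**Figure D4:**
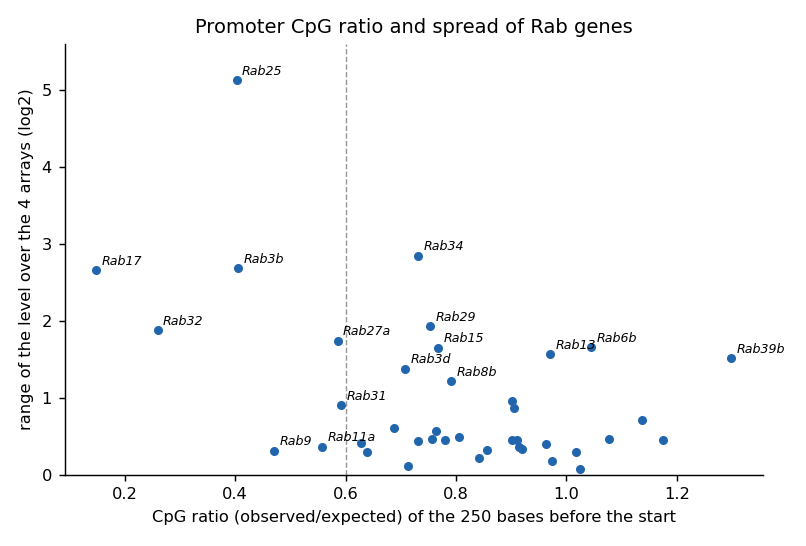
Range of the level over the 4 arrays (vertical axis, log2 units) against the CpG ratio of the 250 bases before the start (horizontal axis) for 40 Rab genes that reached the floor; the dashed line marks a ratio of 0.6. Rab25, Rab17, Rab3b and Rab32 lie at the upper left, while Rab9 and Rab11a are CpG-poor with a narrow range. Rab25, Rab17, Rab3b and Rab32 passed the floor only in fractions where they were high, and genes below the floor are not drawn.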

How the data were processed

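RNA of fixed, sorted cells was amplified and read on an Affymetrix mouse array, 1 array per fraction. The deposited values are log2 levels per probe set, made by the authors with RMA per the submitters' processing notes, with its version not given in the sources used here. RMA forces all arrays to a common distribution, so a shift shared by most genes would not be seen, and fold changes of dim or bright probe sets can be compressed.

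Of 45101 probe sets, 34945 that are no controls and carry 1 gene symbol were used, giving 18193 genes, each read by the probe set that was brightest on average. Calls needed a difference of 1 log2 unit and a higher level of at least 4.53. Against a level under the ceiling of 2.94, folds were computed from the ceiling and are lower bounds. With 1 array per fraction no test was run. Scripts were tested on simulated data (Python 3.11.15, pandas 2.3.3, numpy 2.4.6). By the naming rule, every called Rab gene is named with its paralogues and the widest and narrowest genes. Of each list of regulators and effectors, up to 6 members with the largest differences among those called are named. Other Rab genes and list members named beside them were chosen after their values were seen. The members, gene lists and markers were chosen with earlier results of these data known. The alternatives were another probe set rule, floor, fold or scaling.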

Additional observations from a re-analysis of the deposited data

How the results depend on the processing

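With 1 array per fraction, no replicate could be left out, and differences near 2-fold rest on single values. No paired analysis was possible because each group has 1 array and no result comes from a test. Under 8 alternatives, 67 of 88 counts and medians stayed within their limits, the 24 medians among them, and none of 189 values of called genes changed sign. The alternatives of floor and fold leave a gene's difference as it was, so its sign could not change under them. Read alone, the other probe set of Rab8b had the opposite sign at the Klf4 step, with -0.47. Averaging a gene's probe sets left 42 Rab genes, with 1 lower at the Oct4 step and 0 higher at the Klf4 step. Of 10687 genes, 469 and 823 were. Leaving out probe sets whose suffix marks them as reading several transcripts left 44 Rab genes. Of these, 1 was higher at the EpCAM step and 5 end to end, beside 296 and 1200 of 9942 genes. Rab15 and Rab17 have only probe sets with such a suffix, so they dropped out unread. The calls of Rab27a and Rab7b were lost on their remaining probe sets. With the floor at the 75th percentile, 6.87, 28 Rab genes were left. The counts were 0 higher and 0 lower at the Oct4 step, and 1 and 1 at the Klf4 step. They were 1 higher at the EpCAM step, and 2 higher and 1 lower end to end. Over the 7561 genes left, 191 were higher and 303 lower at the Oct4 step, and 495 and 443 at the Klf4 step. At the EpCAM step 162 were higher, and end to end 797 were higher and 731 lower. With no floor, 5 of 59 Rab genes were higher at the Klf4 step, beside 1068 of 18193 genes. At 1.5-fold the counts of the 49 Rab genes were 3 higher and 4 lower, 9 and 5, and 5 and 2 at the Oct4, Klf4 and EpCAM steps. Over the 11428 genes they were 943 and 1108, 1740 and 1463, and 745 and 560. At 3-fold, 0 of the 49 were higher at the Oct4 step, 1 at the EpCAM step and 4 end to end. Of the 11428 genes, 201, 150 and 798 were. Median centring moved the end-to-end median of all genes from 0.07 to -0.04, and with it or quantile scaling the call of Rab7b alone was lost. Of 24 calls, 8 were lost with averaged probe sets, 18 with the higher floor and 10 at 3-fold.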
